A study of Drosophila melanogaster with 4 samples.

Results

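The genes described here encode the aminoacyl-tRNA synthetases of Drosophila melanogaster, measured in S2 cells with and without heat shock. They were chosen by name alone: a gene was taken where its FlyBase symbol is the 3-letter code of an amino acid followed by RS, with or without the ending -m for the mitochondrial enzyme, and GluProRS was added. This rule found 33 genes among the 17697 genes listed in each library, 18 cytosolic and 15 mitochondrial. All 33 were expressed strongly enough to enter the test, which covered 8784 genes. The rule used no measured value, although it was set with earlier results of these data known.

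Each synthetase joins one amino acid to the tRNAs that carry its anticodons, so ribosomes cannot read a codon without the enzyme for it. Animal cells run this chemistry in the cytosol and again in mitochondria, where a separate set of enzymes encoded by nuclear genes charges the tRNAs transcribed from mitochondrial DNA. The enzymes fall into class I and class II, which have unrelated catalytic folds and approach opposite sides of the tRNA acceptor stem. In human cells several cytosolic enzymes are held together in a multisynthetase complex.

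Poly(A) RNA was sequenced from wild-type S2 cells, a line derived from late embryos, in 2 untreated and 2 heat shock libraries. All cells were grown at 27 °C in DMEM with fetal bovine serum. The heat shock cells were then kept at 37 °C for 1 h and returned to 27 °C for 1 h before lysis, so the values describe cells in recovery and not at the end of the heat shock itself. The heat shock cells were lysed as separate replicates, which the labels do not state for the untreated cells, and p-values therefore measure only the spread between these libraries, which may be technical. S2 cells are 1 established line, so the values stand for that line and not for fly tissues.

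The libraries held between 10221418 and 11988483 estimated counts. The 6 copies of Hsp70 took 0.0671% and 0.0699% of the counts in the untreated libraries against 12.9% and 14.3% after heat shock, which accords with the labels of all 4 libraries. Among markers of hemocytes, the blood cells that S2 cells resemble, srp and crq were at 179 CPM or more in each library, whereas Pxn and Hml were at 3.20 CPM or less, He was listed at 0 and NimC1, eater and Sr-CI stayed under 1 CPM. Of 7 matched markers of neurons, muscle, germline and fat body, elav was at 64.7 to 81.1 CPM and each of the others was under 8 CPM. The summed CPM of these 7 was 72.2 and 82.8 in untreated cells, against 93.6 and 90.8 in heat shock cells. Some of these markers moved with the condition in the edgeR test: srp was higher by 0.37 on the log2 scale, crq changed by -0.45, and nSyb and Fbp1 were higher from means of 0.242 and 0.283 CPM to 2.42 and 1.40 CPM. The part of these cell type markers in the results was not tested. The counts of the 2 untreated libraries differed by more than sampling noise, as did those of the 2 heat shock libraries, so all 4 were counted as separate libraries.

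Levels per length are given as TPM, a share of transcripts per 1000000, which divides by transcript length and then by the sum over the library. Changes are given on CPM, estimated counts per 1000000 of the library total, with totals scaled by TMM, the edgeR factor that sets most genes to no change. In bulk RNA, fewer cells with a transcript and less transcript per cell cannot be told apart. No outside standard was added to these libraries, so every change is relative to the other transcripts. The median log2 fold change over all genes tested was -0.02 on this scale.

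Cytosolic synthetase genes were well expressed and mitochondrial ones were low to moderate. Averaged over the 4 libraries, the cytosolic genes ran from 30.7 to 199 TPM with a median of 74.8 TPM, and the mitochondrial genes from 1.58 to 41.6 TPM with a median of 8.94 TPM. AspRS, which charges aspartate, had the highest level, at 243 and 231 TPM in untreated cells, against 157 and 166 TPM in heat shock cells. AsnRS, for asparagine, followed at 215 and 203 TPM and then 140.1 and 135 TPM. AlaRS, for alanine, had 196 and 182 TPM and then 111 and 119 TPM. In each of these 3 genes both heat shock libraries were below both untreated libraries on the TPM scale. That scale makes no allowance for the heat shock transcripts, and the median log2 fold change over all genes on log2(TPM + 1) was -0.51. The share of all genes separated in this way in TPM is not given here. On TMM-scaled counts the log2 fold changes were 0.00 in AspRS, -0.08 in AsnRS and -0.20 in AlaRS. Only that of AlaRS passed the test given below. The next genes in order, IleRS, HisRS and ThrRS, could not be told apart by level, since their ranges overlapped in both conditions.

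The lowest levels were those of ValRS-m, at 2.21 and 2.18 TPM in untreated cells, against 0.85 and 1.08 TPM in heat shock cells, GluRS-m, at 3.73 and 3.59 TPM and then 1.79 and 2.23 TPM, and ArgRS-m, at 5.36 and 3.95 TPM and then 1.87 and 2.31 TPM. GluRS-m and ArgRS-m overlapped in their heat shock values, and ArgRS-m could not be told apart from the next gene, AsnRS-m, whose ranges overlapped it in both conditions. The only mitochondrial genes among the 20 highest of the 33 were AspRS-m, at 41.6 TPM, and PheRS-m, at 32.2 TPM, and the ranges of AspRS-m and the cytosolic LeuRS overlapped in untreated cells. ValRS-m stood at the 8.61 percentile of all tested genes by TPM and AspRS at the 92.7 percentile.

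**Figure D1:**
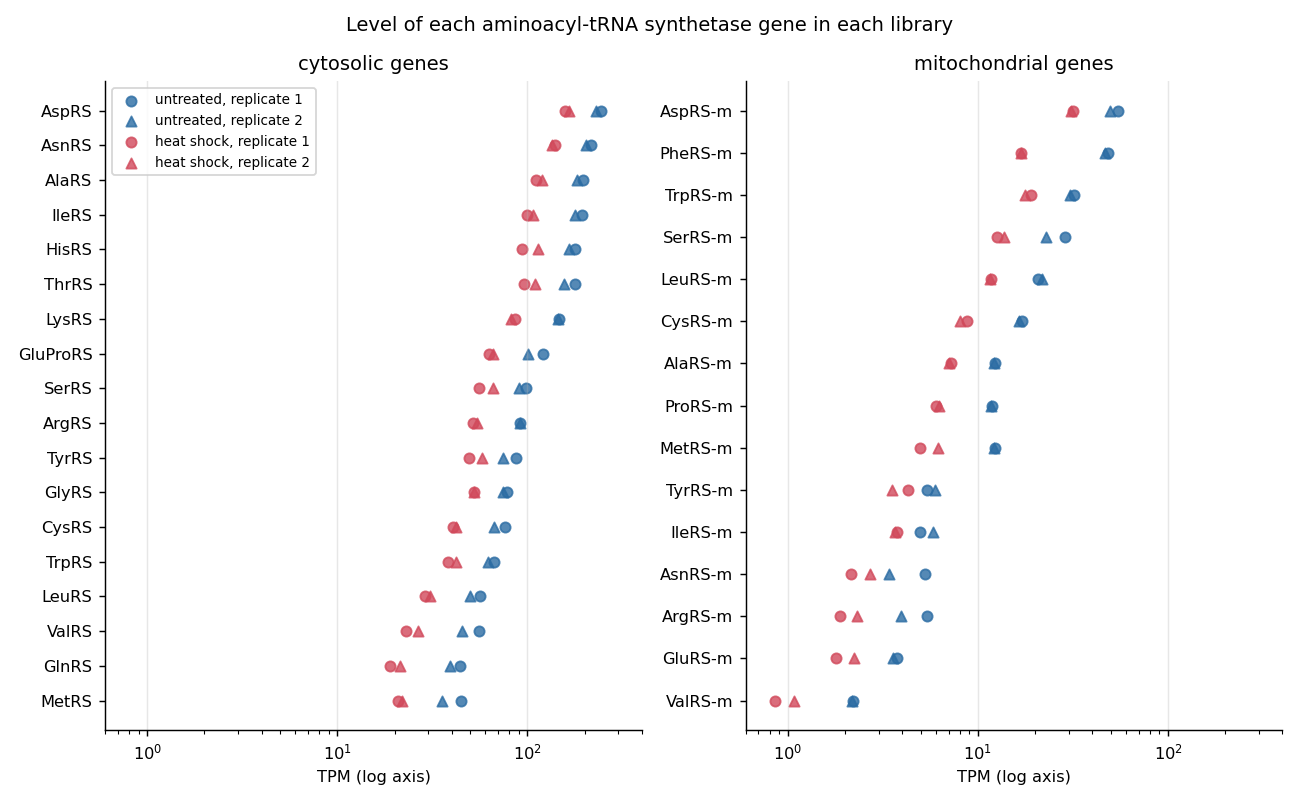
TPM of each synthetase gene on a log axis, with cytosolic genes on the left and mitochondrial genes on the right, ordered by mean level. Each point is 1 library, blue for untreated and red for heat shock, with circles and triangles for the replicate number. On this scale, which makes no allowance for the heat shock transcripts, both red points lie left of both blue points in each gene. The share of all genes separated in this way in TPM is not given here, but their median log2 fold change on log2(TPM + 1) was -0.51. In CPM, 27 of the 33 genes were separated in this direction, against 37.8% of all tested genes. The levels run from 0.85 TPM in ValRS-m to 243 TPM in AspRS.

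Across both compartments, transcripts of 16 of the 33 genes (48.5%) were lower after heat shock and those of 17 did not pass the test (edgeR quasi-likelihood test, Benjamini-Hochberg adjusted over all genes, threshold 0.05). The same test called 18.6% of all genes lower and 21.4% higher. No synthetase gene was called higher by edgeR, limma-voom or DESeq2, and none was higher at an unadjusted p under 0.05 in edgeR, where 20 were lower. By that measure 24.6% of all genes were lower and 24.9% higher. The fitted change was negative in 32 genes, against 52.5% of all genes, and both heat shock libraries were below both untreated libraries in CPM in 27 genes, against 37.8% of all genes. Most changes were small: the median log2 fold change was -0.28.

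The number of calls depended on the scaling of the libraries and on the test. With plain library totals all 33 genes were called lower, as were 71.2% of all genes. With library totals that left out the heat shock genes 27 were called lower, against 36.9% of all genes. The DESeq2 test called 8 lower, against 5.79% of the 10416 genes in its wider set. DESeq2 size factors in edgeR gave 17, against 20.0% of the 8784 genes. Under plain totals the median over all genes was itself -0.56, and the cytosolic median was -0.77 and the mitochondrial one -0.88. Relative to the median gene, the cytosolic median lay at -0.21 and the mitochondrial median at -0.32 under TMM and under both kinds of totals. These fits hold the same genes and differ only in scaling, so that match was fixed in advance. DESeq2 and the fit without a low-count filter, both with a wider set of genes, gave -0.36 and -0.47. On the log2(TPM + 1) scale the values were -0.24 and -0.23.

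Among the 18 cytosolic genes, 10 (55.6%) were lower after heat shock, against 18.6% of all genes, and 8 did not pass the test. The median log2 fold change was -0.23, with a range from -0.54 to 0.00. The falls came from the genes for glutamine, valine, methionine, isoleucine, leucine, arginine, cysteine, lysine, alanine and the joint enzyme for glutamate and proline. GlnRS, the glutaminyl enzyme, had 50.03 and 45.7 CPM in untreated cells, against 30.7 and 35.2 CPM in heat shock cells. Its groups did not overlap, at 47.9 ± 3.05 and 32.9 ± 3.13 CPM (SD, n = 2), and the log2 fold change was -0.54 ± 0.09 (SE), with an edgeR adjusted p of 0.00216. ValRS, the valyl enzyme, had 85.5 and 72.3 CPM and then 51.3 and 60.01 CPM. The heat shock libraries were again both below the untreated ones, a log2 fold change of -0.51 ± 0.10 with an edgeR adjusted p of 0.00556. MetRS, the methionyl enzyme, had 70.1 and 57.6 CPM and then 47.7 and 50.05 CPM, also without overlap, at -0.39 ± 0.10 with an edgeR adjusted p of 0.0144.

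The other 7 cytosolic falls were between -0.32 and -0.20. IleRS changed by -0.32, LeuRS by -0.31, CysRS, LysRS and GluProRS by -0.28 each and ArgRS by -0.27. AlaRS had 286 and 272 CPM in untreated cells, against 234 and 252 CPM in heat shock cells, a log2 fold change of -0.20 ± 0.07 with an edgeR adjusted p of 0.0416. Its groups did not overlap, but the call was lost without the first untreated library and without the first heat shock library, in DESeq2 and when every library had to hold 10 counts. The call of CysRS was lost without either of these libraries as well, that of GluProRS without the first untreated library and that of ArgRS without the first heat shock library. DESeq2 also lost CysRS and ArgRS. Leaving out each of these 2 libraries left 7 cytosolic calls.

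The 8 cytosolic genes that did not pass the test were ThrRS and HisRS, each with a log2 fold change of -0.18, TrpRS at -0.16, SerRS at -0.12, AsnRS and TyrRS at -0.08, GlyRS at -0.04 and AspRS at 0.00. In AspRS the libraries overlapped, at 219 and 216 CPM in untreated cells, against 211 and 226 CPM in heat shock cells, and the interval of the change ran from -0.14 to 0.15. AsnRS had 196 and 190.0 CPM and then 185 and 179.5 CPM, which did not overlap, and its interval ran from -0.22 to 0.06. GlyRS had an interval from -0.18 to 0.11. For these 3 genes, 2 of which were the highest of the family in level, the intervals exclude changes of the size seen in GlnRS. These values hold for TMM scaling. With plain totals AspRS was at -0.53 and with totals lacking the heat shock genes at -0.16.

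Reads of AspRS may be shared with other genes. The antisense gene asRNA:CR45141 lies over 1448 of its 2266 exon bases on the opposite strand and had at most 44.7 estimated counts in a library. asRNA:CR43468, which shares 154 bases on the same strand, rose from 78.7 and 60.8 estimated counts to 257 and 176, a log2 fold change of 2.02 ± 0.17 with an edgeR adjusted p of 6.5e-05. Whether counting used the strand is not given in the sources used here, so reads of AspRS and of these neighbours cannot be fully told apart. HisRS shares 255 bases on its strand with Bx, which was higher after heat shock by 0.34 on the log2 scale.

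**Figure D2:**
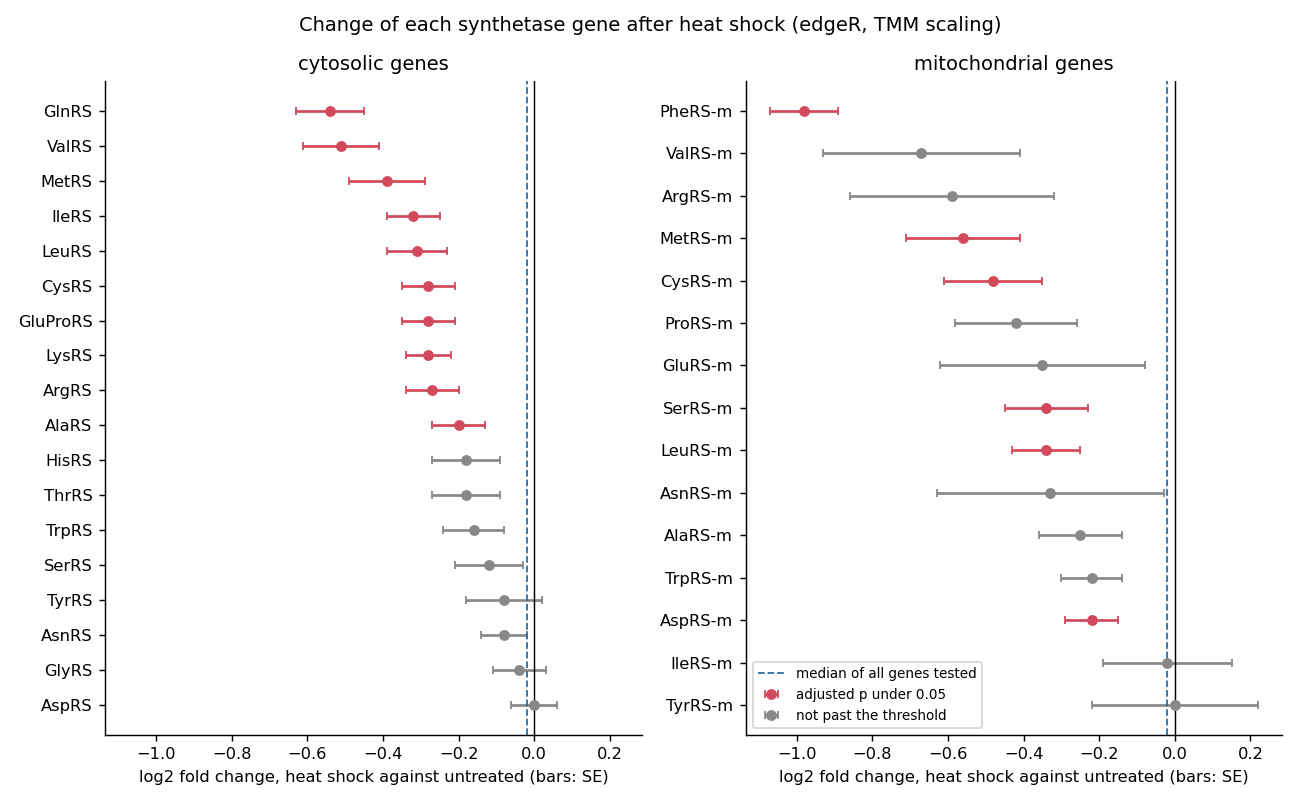
Log2 fold change, heat shock against untreated on TMM-scaled counts, of all 33 synthetase genes, with bars for the standard error. Cytosolic genes are on the left and mitochondrial genes on the right, ordered by size of change. Red points passed the edgeR test at an adjusted p of 0.05, grey ones did not, and the dashed line is the median of all genes tested, -0.02. The called genes all lie left of 0, from -0.98 in PheRS-m to -0.20 in AlaRS.

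By catalytic class, the cytosolic class I genes held 7 of the falls among 9 genes, with a median log2 fold change of -0.31, and TrpRS and TyrRS were the 2 that did not pass. Of the 8 cytosolic class II genes LysRS and AlaRS were lower, and the class median was -0.15. These shares were 77.8% in class I and 25.0% in class II, against 18.6% of all genes. Class and level overlap, as the median level was 52.2 TPM in cytosolic class I and 136 TPM in cytosolic class II. GluProRS joins a class I glutamyl enzyme to a class II prolyl enzyme in one protein and stands outside both counts. Among the mitochondrial genes, 3 of 9 in class I and 3 of 6 in class II were lower, with medians of -0.35 and -0.33. The difference between classes was not tested.

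The enzymes that in human cells belong to the multisynthetase complex were GluProRS, IleRS, LeuRS, MetRS, GlnRS, ArgRS, LysRS and AspRS. Of these 8 genes 7 were lower, AspRS being the exception, and their median log2 fold change was -0.30. Of the 10 cytosolic genes outside the complex 3 were lower, namely ValRS, CysRS and AlaRS, with a median of -0.17. The shares were 87.5% in the complex and 30.0% outside it, against 18.6% of all genes. Complex membership and class overlap, as 5 of the 8 are class I, and the difference between the sets was not tested. The complex also has 3 scaffold proteins, which carry no charging activity. AIMP1 was lower at -0.30 ± 0.10 with an edgeR adjusted p of 0.0395, a call lost in DESeq2 and without the first library of either condition, while AIMP2 at -0.24 and AIMP3 at -0.09 did not pass.

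Replicates of the same condition differed in one direction across the cytosolic genes. The second heat shock library was above the first in CPM in 16 of 18 cytosolic genes (88.9%), against 49.7% of all tested genes, and in 7 of 15 mitochondrial genes. The first untreated library was above the second in 16 of 18 cytosolic and 7 of 15 mitochondrial genes, against 50.2% of all genes. Summed over the cytosolic genes, CPM was 2594 and 2442 in untreated cells, against 2092 and 2256 in heat shock cells, so the gap between conditions exceeded that between replicates. The cytosolic genes thus varied together between libraries and are not independent observations of the heat shock.

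Among the 15 mitochondrial genes, 6 (40.0%) were lower after heat shock, against 18.6% of all genes, and 9 did not pass the test. The median log2 fold change was -0.34, with a range from -0.98 to 0.00. PheRS-m, the mitochondrial phenylalanyl enzyme, showed the largest fall of the family. The gene is at 2R:13968308-13969902 in the BDGP6.54 annotation and has 1 annotated transcript. It had 33.6 and 33.1 CPM in untreated cells, against 16.96 and 16.95 CPM in heat shock cells. Replicates lay close together and the groups far apart, at 33.3 ± 0.391 and 17.0 ± 0.00842 CPM (SD, n = 2). The heat shock values rest on 170 and 148 estimated counts, and an SD of 2 libraries is a poor measure of spread. The level fell by 49.1%, a log2 fold change of -0.98 ± 0.09 with an interval from -1.18 to -0.77 and an edgeR adjusted p of 9.5e-05. Across all processing choices tried, its change stayed between -1.51 and -0.95.

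MetRS-m, the mitochondrial methionyl enzyme, had 10.8 and 11.02 CPM in untreated cells, against 6.79 and 8.13 CPM in heat shock cells. The groups did not overlap, and the log2 fold change was -0.56 ± 0.15 with an edgeR adjusted p of 0.0194. Without the first heat shock library the change was -0.43 with an adjusted p of 0.117. The other falls were in CysRS-m at -0.48, LeuRS-m and SerRS-m at -0.34 each and AspRS-m at -0.22. Only 3 mitochondrial calls were left without the first heat shock library, which lost AspRS-m, MetRS-m and SerRS-m. AspRS-m was also lost without the first untreated library, as was SerRS-m, and without the second heat shock library, as was CysRS-m. DESeq2 called PheRS-m alone of the 15, and it called 5.79% of the 10416 genes in its wider set lower.

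The 9 mitochondrial genes that did not pass were ValRS-m at -0.67, ArgRS-m at -0.59, ProRS-m at -0.42, GluRS-m at -0.35, AsnRS-m at -0.33, AlaRS-m at -0.25, TrpRS-m at -0.22, IleRS-m at -0.02 and TyrRS-m at 0.00. ValRS-m had 3.20 and 3.27 CPM and then 1.80 and 2.29 CPM, without overlap, and its interval ran from -1.27 to -0.06 with an edgeR adjusted p of 0.0746. ArgRS-m had 5.28 and 4.08 CPM and then 2.49 and 3.78 CPM, and its interval ran from -1.20 to 0.01. GluRS-m had 2.88 and 2.86 CPM and then 2.00 and 2.52 CPM. At these depths, with 18 estimated counts in the lowest value of the family, falls of the size seen in MetRS-m could not be separated from no change in the weakest genes. The standard error of the log2 fold change had a median of 0.15 in mitochondrial genes and 0.08 in cytosolic ones.

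For 14 amino acids a mitochondrial gene can be set beside the cytosolic gene, with GluProRS serving both glutamate and proline. The cytosolic TPM was above the mitochondrial one in every library for all 14, from a mean ratio of 2.06 for tryptophan to 50.2 for asparagine in untreated cells. The median ratio was 11.9 before and 12.2 after heat shock, and for 8 of the 14 the ratios overlapped between conditions. Both genes were lower for cysteine, leucine and methionine, only the cytosolic gene for 6, only the mitochondrial gene for aspartate and serine, and neither for 3. The mitochondrial change was the more negative one in 12 of 14, with isoleucine and tyrosine as the exceptions. These differences ran from -0.33 for arginine to -0.03 for leucine among the 12, and none was tested. For valine the ratio was 25.1 and 20.9 in untreated cells, against 27.0 and 24.7 in heat shock cells, which overlapped. For isoleucine, IleRS was lower at -0.32 while IleRS-m had 6.64 and 8.0 CPM and then 7.28 and 7.10 CPM, with an interval of the change from -0.41 to 0.36.

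**Figure D3:**
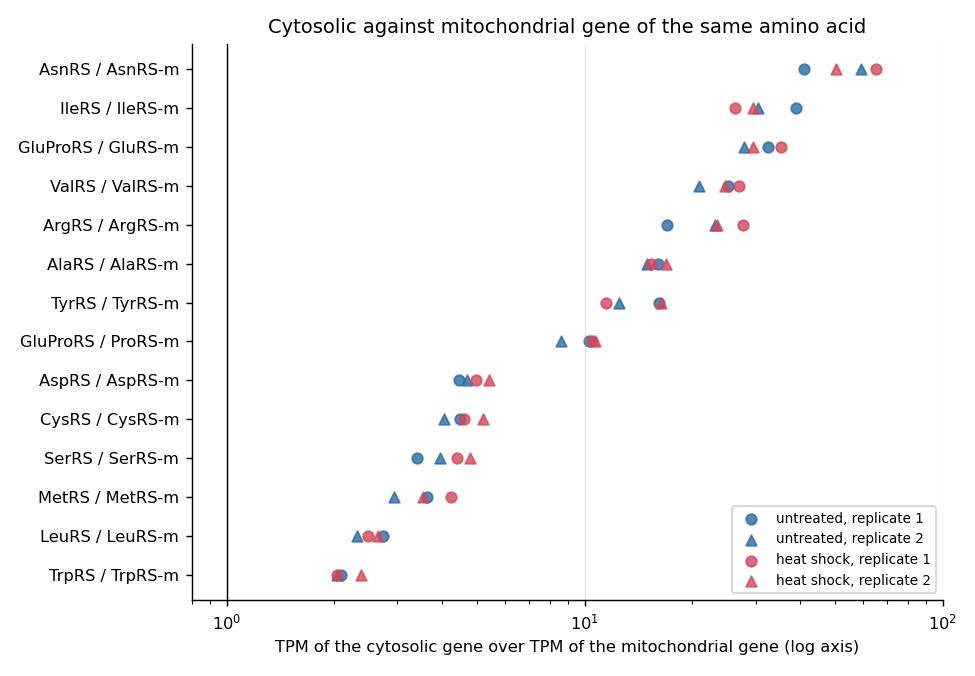
TPM of the cytosolic gene divided by TPM of the mitochondrial gene of the same amino acid, on a log axis, with 1 point per library, blue for untreated and red for heat shock. All points lie right of 1, from about 2 for tryptophan (mean 2.06 in untreated cells) to above 40 for asparagine (mean 50.2), and red and blue points overlap in 8 of the 14 rows.

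Summed over the family, the cytosolic genes took 0.317% and 0.289% of all estimated counts in untreated cells, against 0.175% and 0.186% in heat shock cells. The mitochondrial genes took 0.0365% and 0.0343% and then 0.0193% and 0.0192%. These shares are of libraries in which Hsp70 rose as given above. The ratio of summed cytosolic to summed mitochondrial TPM was 8.20 and 8.01 before and 9.18 and 9.83 after heat shock, without overlap. The mitochondrial sum includes PheRS-m, which went from 48.6 and 46.4 TPM to 16.9 and 16.8 TPM. The cytosolic sum lacks its counterparts alpha-PheRS and beta-PheRS, and it holds 5 genes for amino acids with no -m gene. Those 5 summed to 626 and 580 TPM in untreated cells, against 347 and 378 TPM in heat shock cells. The 2 sums therefore do not cover the same amino acids. Across the 33 genes, Spearman's rho between mean TPM and log2 fold change was 0.51, with 0.52 in the 18 cytosolic and 0.18 in the 15 mitochondrial genes. Mean TPM was taken over all 4 libraries, so the heat shock values enter both quantities, and no rho over all genes is given. The genes share the same 4 libraries, and the rho values are a description.

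Phenylalanine has no cytosolic gene under the naming rule, because its cytosolic enzyme is built from an alpha and a beta subunit with names of their own, whereas the mitochondrial enzyme is a single chain. alpha-PheRS, which holds the catalytic site, had 27.9 and 29.2 CPM in untreated cells, against 18.1 and 20.8 CPM in heat shock cells. The groups were apart, at a log2 fold change of -0.56 ± 0.10 with an edgeR adjusted p of 0.00349. beta-PheRS, which holds the editing site, had 36.9 and 41.8 CPM and then 33.0 and 31.0 CPM, at -0.29 ± 0.09 with an edgeR adjusted p of 0.0298. All genes for charging phenylalanine were therefore lower after heat shock, in both compartments, although the call of beta-PheRS was lost in DESeq2, without the second untreated library and without the second heat shock library.

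Glutamine, glycine, histidine, lysine and threonine have a cytosolic gene and no -m gene. In human cells the glycyl and lysyl enzymes of both compartments come from single genes, through alternative starts for glycine and alternative splicing for lysine, and mitochondrial glutamine tRNA is charged indirectly, first with glutamate. Of these 5 genes, GlyRS, HisRS, LysRS and ThrRS had several coding lengths, of which the shortest and longest were 2037 and 2295 bases in GlyRS, 1566 and 1692 in HisRS, 1722 and 1821 in LysRS and 2070 and 2241 in ThrRS. GlnRS had one. Among the 13 other cytosolic genes only GluProRS and ValRS had several coding lengths, and among the 15 mitochondrial genes only ProRS-m. These counts cover the annotated transcripts that the deposited tables also list. AspRS-m has a further annotated transcript outside them, with a coding length of 3417 bases against 3246. LysRS and GlnRS were lower after heat shock and the other 3 did not pass.

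The indirect route to mitochondrial glutamine tRNA needs the amidotransferase made of GatA, GatB and GatC. GatA fell, at a log2 fold change of -0.59 ± 0.19 with an edgeR adjusted p of 0.0336, and GatB at -0.48 ± 0.17 with an edgeR adjusted p of 0.0463. GatC, at -0.53 ± 0.21, did not pass, and the posterior SD of its estimated count, a measure of reads that could belong to several genes, reached 62.3% of the count. Slimp, a fly relative of the mitochondrial seryl enzyme that binds SerRS-m, had 5.68 and 7.10 CPM and then 4.49 and 3.32 CPM, at -0.70 ± 0.23 with an edgeR adjusted p of 0.0377. Its groups did not overlap. These 3 calls were lost in DESeq2 and without the second heat shock library, and those of GatA and GatB also without the first untreated library, that of Slimp without the second untreated library.

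Transcript choice within the genes could be followed only through the mean transcript length that the deposited tables give, weighted by abundance. It varied between libraries in 18 of the 33 genes, and in 5 of these (27.8%) the shift between conditions exceeded the difference within them, against 30.1% of all tested genes whose length varied. In SerRS-m the weighted length was 2069 and 2212 bases in untreated cells, against 2300 and 2309 bases in heat shock cells. AspRS moved from 1976 and 1984 to 2029 and 2034 bases, and HisRS from 2134 and 2144 to 2187 and 2174 bases. The remaining shifts, in AlaRS and AsnRS, were of about 1 base. The share among synthetases was close to that among all genes.

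The family is spread over the genome, with 10 genes on 3L, 8 on 2R, 6 each on 2L and 3R and 3 on X. The nearest neighbours were GluRS-m and TyrRS, on the same strand of 3L with 171 bases between them, and neither passed the test. Exon bases were shared with another gene in 16 members and exceeded 100 bases in 6, which were AspRS, GluProRS, SerRS-m, HisRS, CysRS-m and ArgRS-m. The posterior SD of the estimated count, which reflects reads that could belong to several genes, was at most 2.80% of the count, in ArgRS-m.

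Charged tRNAs are carried to the ribosome by elongation factors, and uncharged tRNA is sensed by the kinase Gcn2. Together with the phenylalanyl subunits, the scaffold and the mitochondrial helpers, these made a list of 23 companion names, of which 22 matched a gene and all 22 entered the test. Of these, 11 were lower, 3 higher and 8 not called, with a median log2 fold change of -0.30. The same test called 18.6% of all genes lower and 21.4% higher. DESeq2 called 4 of the companion genes lower and 3 higher. The cytosolic elongation factors did not move as a group. eEF1alpha1, eEF1beta and eEF1gamma were at 0.17, 0.15 and 0.10 and did not pass, and all 3 had negative values under plain totals. eEF1delta, a subunit of the exchange factor that reloads eEF1alpha, had 80.2 and 68.8 CPM and then 48.6 and 48.2 CPM, at -0.62 ± 0.09 with an edgeR adjusted p of 8.2e-04. eEF1alpha2 was higher, at 0.400 and 0.816 CPM and then 3.29 and 3.55 CPM. Its log2 fold change of 2.47 ± 0.36, with an edgeR adjusted p of 0.00116, rests on very few counts.

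Of the mitochondrial elongation factors, mEFTu2 had 20.4 and 14.0 CPM and then 9.78 and 11.5 CPM, a log2 fold change of -0.70 ± 0.20 with an edgeR adjusted p of 0.0213. mEFTs was lower at -0.33 ± 0.07 with an edgeR adjusted p of 0.00865, and mEFTu1 at -0.15 did not pass. DESeq2 called neither mEFTu2 nor mEFTs, and the call of mEFTu2 was lost without the first untreated library. The genes around amino acid starvation split in direction. AsnS, asparagine synthetase, which makes the amino acid and does not charge a tRNA, rose from 57.8 and 51.1 CPM to 131 and 149 CPM, at 1.36 ± 0.09 with an edgeR adjusted p of 1.4e-05. PEK, the kinase that phosphorylates the same initiation factor as Gcn2 upon stress in the endoplasmic reticulum, rose from 229 and 239.5 CPM to 354 and 343 CPM, at 0.57 ± 0.06 with an edgeR adjusted p of 2.4e-04.

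Gcn2 itself was lower, at 103 and 93.4 CPM and then 73.4 and 84.8 CPM, a log2 fold change of -0.32 ± 0.09 with an edgeR adjusted p of 0.0219. Thor, the fly 4E-BP, which holds back cap-dependent translation, fell from 287 and 317 CPM to 183 and 158 CPM, at -0.82 ± 0.09 with an edgeR adjusted p of 2.0e-04. crc, the fly ATF4, was at 0.16 and did not pass. In AsnS, PEK, Gcn2 and Thor the libraries of the conditions did not overlap. The call of Gcn2 was lost without the first untreated library and without the first heat shock library, and PEK did not pass under plain totals or on TPM. AsnS and Thor therefore changed in opposite directions, and the gene for making asparagine rose while AsnRS, which charges it, did not pass the test.

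**Figure D4:**
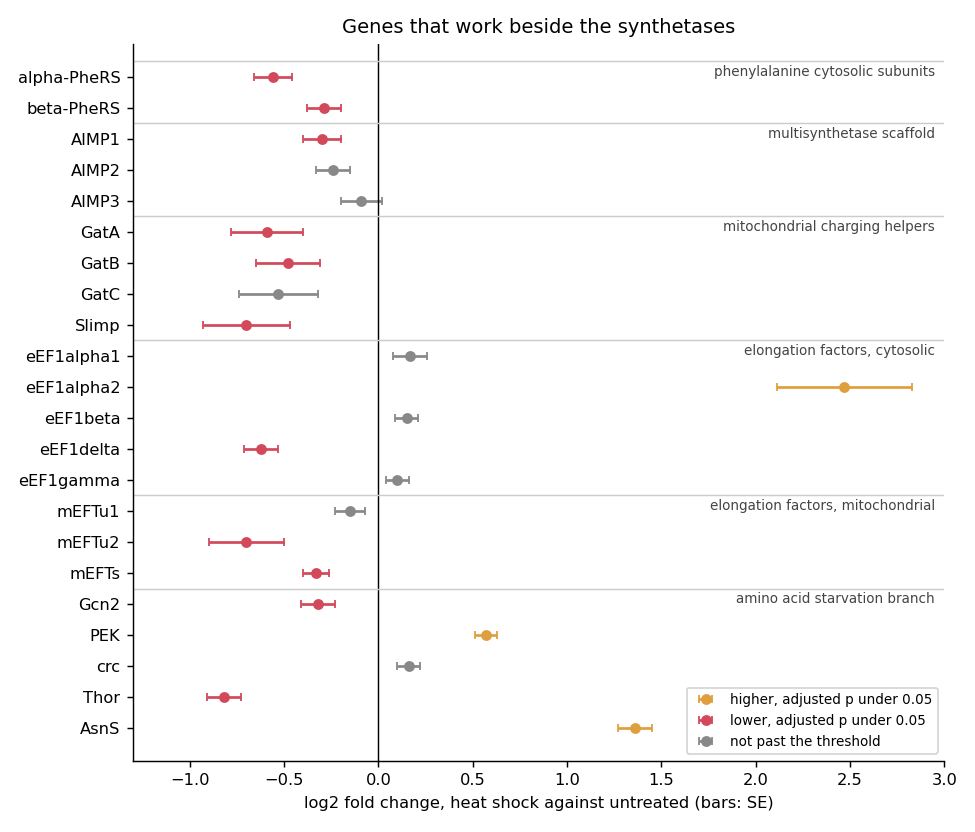
Log2 fold change, heat shock against untreated on TMM-scaled counts, of the 22 companion genes grouped by role, with bars for the standard error. Red points were lower and orange points higher at an edgeR adjusted p of 0.05, and grey points did not pass. eEF1alpha2 at 2.47 and AsnS at 1.36 lie far to the right, and Thor at -0.82 lies farthest to the left.

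Of the 16 synthetase genes called lower, 8 kept the call under every choice of test, scaling and filter tried, the replicate block and both TPM scales included. These were GlnRS, GluProRS, IleRS, LeuRS, LysRS, MetRS, PheRS-m and ValRS. All of them but GluProRS also kept it when each library was left out in turn.

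**Figure D5:**
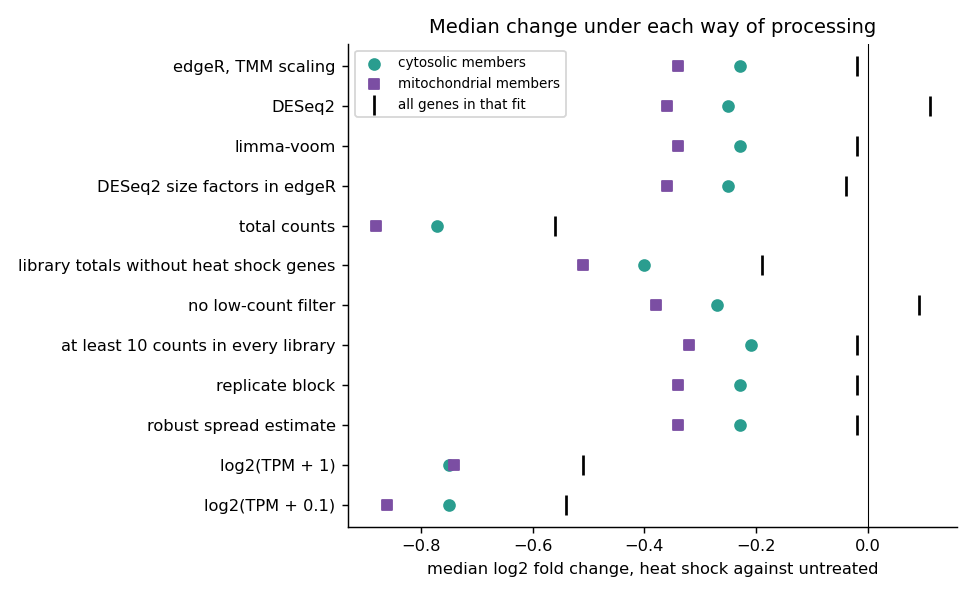
Median log2 fold change, heat shock against untreated, of the 18 cytosolic genes (circles), the 15 mitochondrial genes (squares) and all genes in the same fit (vertical marks) under each way of processing. Both member medians lie left of the mark for all genes in each row, by -0.21 and -0.32 with TMM, while all 3 move left together with plain totals, to -0.77, -0.88 and -0.56. On log2(TPM + 1) the cytosolic and mitochondrial medians lie close together, at -0.75 and -0.74.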

How the data were processed

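Poly(A) RNA of S2 cells was sequenced as 50 bp reads in 2 untreated and 2 heat shock libraries, grouped by the stress given in the labels. The submitters' processing notes name Trimmomatic 0.36, STAR 2.6.1c and RSEM 1.3.1 and release 6 of the fly genome, and the study's methods also name featureCounts and DESeq2. Strand use in counting is not given in the sources used here. The authors deposited, for each library, an expected count per gene (an estimated count that RSEM divides among genes sharing a read), TPM values that divide such counts by length, and an abundance-weighted mean transcript length. A posterior SD of the count, a score of the ambiguity of reads, was also deposited by the authors per gene. FPKM and 2 pooled tables were not used.

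Estimated counts were rounded. Genes passing filterByExpr were scaled with TMM and tested in R 4.3.3 by edgeR 4.0.16 (quasi-likelihood test), with Benjamini-Hochberg adjustment over all 8784 genes at 0.05. The script was tested on simulated data. Intervals of log2 fold changes cover 95%. Limma 3.58.1 and DESeq2 1.42.0 served for alternatives of test and unit, and scaling, filter, replicate block, spread estimate and left-out libraries were also varied. Symbols came from the FlyBase names of the current annotation, which matched 17570 of 17697 identifiers. Strand, exon overlap and coding length came from the BDGP6.54 annotation, which is later than the one behind the counts. Library totals ranged from 10221418 to 11988483 estimated counts, and these depths limit counting error only.

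The members and lists were chosen with earlier results of these data known. Full values are given for members past the threshold with a log2 fold change of at least 0.5 in size, for their partners of the same amino acid and for the 3 highest and 3 lowest members by TPM. Companion genes past the threshold are named, up to 4 per list. Same-numbered libraries did not deviate together, with a correlation of -0.167 across 8784 genes and of -0.379 across the 5735 genes with at least 10 CPM, so the main fit has no block.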

Additional observations from a re-analysis of the deposited data

How the results depend on the processing

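No synthetase gene was called higher under any alternative run. Of the cytosolic, mitochondrial and companion genes, 10, 6 and 14 were called. With total counts these were 18, 15 and 21, and with library totals lacking the heat shock genes 16, 11 and 17. Limma on log2(TPM + 1) or log2(TPM + 0.1) gave 18, 15 and 21 in each case, where the medians over all genes were -0.51 and -0.54. For the TPM, replicate block, crossed, robust and left-out fits the share of all genes called is not given here. The counts from these fits therefore cannot be set against such a share. DESeq2 gave 7, 1 and 7, and the cause was not tested. Leaving out 1 library gave 7 to 12, 3 to 7 and 9 to 16 calls, where the lone library of a condition is assumed to vary like the others. With the replicate block, the calls were 9, 5 and 14, and AlaRS and AspRS-m were lost. The crossed pairing, chosen after seeing the data, gave 13, 8 and 19 calls, and the robust spread estimate, also chosen afterwards, called the same 16 synthetase genes.

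Signs turned only in genes that had not passed the test. AspRS was at -0.01 in DESeq2 and with its size factors in edgeR, -0.53 with total counts, -0.16 without the heat shock genes, -0.04 without a filter, -0.55 on log2(TPM + 1) and -0.55 on log2(TPM + 0.1), and -0.05 to 0.05 with a library left out. Leaving out a library gave -0.16 to 0.11 for IleRS-m, -0.25 to 0.00 for SerRS, -0.21 to 0.04 for TyrRS and -0.13 to 0.10 for TyrRS-m, which was at 0.00 in limma-voom and 0.02 when every library had to hold 10 counts. With total counts, TPM with the pseudocount 1 and TPM with the pseudocount 0.1, eEF1alpha1 was at -0.36, -0.34 and -0.34, eEF1beta at -0.38, -0.37 and -0.37, eEF1gamma at -0.43, -0.42 and -0.42, and crc at -0.38, -0.36 and -0.36. Without the heat shock genes in the totals, eEF1beta was at -0.01, eEF1gamma at -0.06 and crc at 0.00. Depth limits the weakest mitochondrial genes, with as few as 18 estimated counts in a library.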
